A study of Mus musculus with 28 samples.

Results

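The step from the newborn to the adult brain was examined here in mouse microglia, with all measured genes. It compares the columns titled Adult Microglia 1 to 6 with those titled Newborn (P0) Microglia 1 to 3, which are 9 of the 28 deposited columns. The 6 adult columns hold 3 pairs of identical values and were counted once each, so 3 adult arrays stood against 3 P0 arrays, 6 of the 25 distinct arrays. The labels spell the strain of all animals C56BL/6, which may stand for C57BL/6, and none was mutant or treated. P0 animals were collected on the day of birth and adults at 2 months. In both groups the brain was digested with collagenase and microglia were sorted as CD45low, CD11b+, F4/80+, CD64+ and Ly6C- cells. Adult brains were also passed over a Percoll density gradient, a step that the P0 brains did not have, so age and this step cannot be told apart. Per the methods, the cells on an array came from several animals pooled without regard to sex. The other 19 distinct arrays cover yolk sac macrophages (YSM) taken at E10.5 and brain microglia at 5 embryonic ages from E10.5 to E18.5.

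Microglia are the macrophages of the brain tissue, where they clear debris and watch over synapses. Dividing microglia are common in the embryonic brain and rare in the adult one, and the lineage goes back to the yolk sac. In the adult brain, microglia carry a characteristic set of surface receptors, which depends on TGF-beta signalling. Around birth, part of the population takes on a state seen near growing axon tracts, marked by growth factors and lipid-handling proteins.

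Values are log2 normalized intensities and are given in the order P0 replicates 1, 2 and 3, then adult replicates 1, 2 and 3. Differences are adult minus P0 on the same scale, ± the standard error of the fit (n = 3 arrays a group). This error and the p-values use the spread within all 8 groups, so variation at other stages enters them. A gene is said to have risen or fallen where the adjusted p of limma's moderated test was under 0.05. Where a gene was not above background on any array of a group (detection p not under 0.01), the fold is a lower bound, written "at least". Adult arrays detected 33.3% to 34.3% of probes and P0 arrays 36.1% to 37.9%. Adult replicates 1 and 2 lay closest together (SD of their log2 difference over genes 0.237, against 0.535 and 0.540 with adult replicate 3), and among P0 arrays replicate 3 lay apart (0.449 and 0.461, against 0.350 between replicates 1 and 2). The Y-linked gene Eif2s3y had 4.58, 9.20 and 8.79 in P0 microglia and 11.18, 11.34 and 4.73 in adult microglia. P0 replicate 1 and adult replicate 3 thus lacked its signal, although animals were described as pooled without regard to sex. The X-linked gene Xist had 13.27, 12.99 and 12.96 at P0 and 10.58, 10.16 and 13.84 in adults. Sex make-up thus differed between arrays, and its part in the results was not tested.

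The sorted cells carried microglial and sort markers on every array. Tmem119, a surface protein of mature microglia, had 12.77, 12.56 and 13.16 at P0 and 14.87, 14.90 and 15.42 in adults. P2ry12, a receptor for ADP that guides microglial processes, had 12.59, 12.75 and 12.28 against 14.40, 14.31 and 14.20. Both rose without overlap, by 2.23 ± 0.30 and 1.76 ± 0.17. Cx3cr1, the fractalkine receptor, had 15.35, 15.67 and 14.33 at P0 and a mean of 15.11 (SD 0.68, n = 3) in adults, so the groups overlapped (adjusted p = 0.99, limma). The sort markers Ptprc (CD45), Itgam (CD11b) and Adgre1 (F4/80) were detected on all 6 arrays and not called on the probe used, with differences of 0.42, 0.55 and -0.16. A second Ptprc probe gave 1.24, and further Adgre1 probes gave -1.21 to -0.40. Fcgr1, which encodes CD64, rose by 0.61 ± 0.14. Of the genes encoding Ly6C, Ly6c2 was not analysed here and the only Ly6c1 probe did not pass the detection filter.

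The adult and P0 profiles differed in more genes than any other pair of neighbouring groups. Of 10630 genes tested, 5433 were called (51.1%), with 2570 higher (24.2%) and 2863 lower (26.9%) in adults. Each of the 6 other steps called between 0.0564% of genes (6 genes, from E18.5 to P0) and 32.9% (from E14.5 to E16.5). The step from YSM to E10.5 microglia compares tissues at the same age. The 6 other steps share arrays with their neighbours, and the number of arrays behind each was 3 or 4 a group. The step to the adult also spans 2 months, far longer than the others. Only the adult group had the density gradient. Large falls outnumbered large rises: 200 called genes were at least 8-fold lower in adults and 42 at least 8-fold higher. At the 2-fold level the counts were 1375 lower (12.9%) and 967 higher (9.1%). For 55.1% of genes every adult array lay on one side of every P0 array. The median difference over all genes was -0.03. When arrays were scaled to their 75th percentile the median was 0.11, and the split turned to 2937 higher and 2104 lower, so counts of small differences in one direction depend on the scaling.

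**Figure D1:**
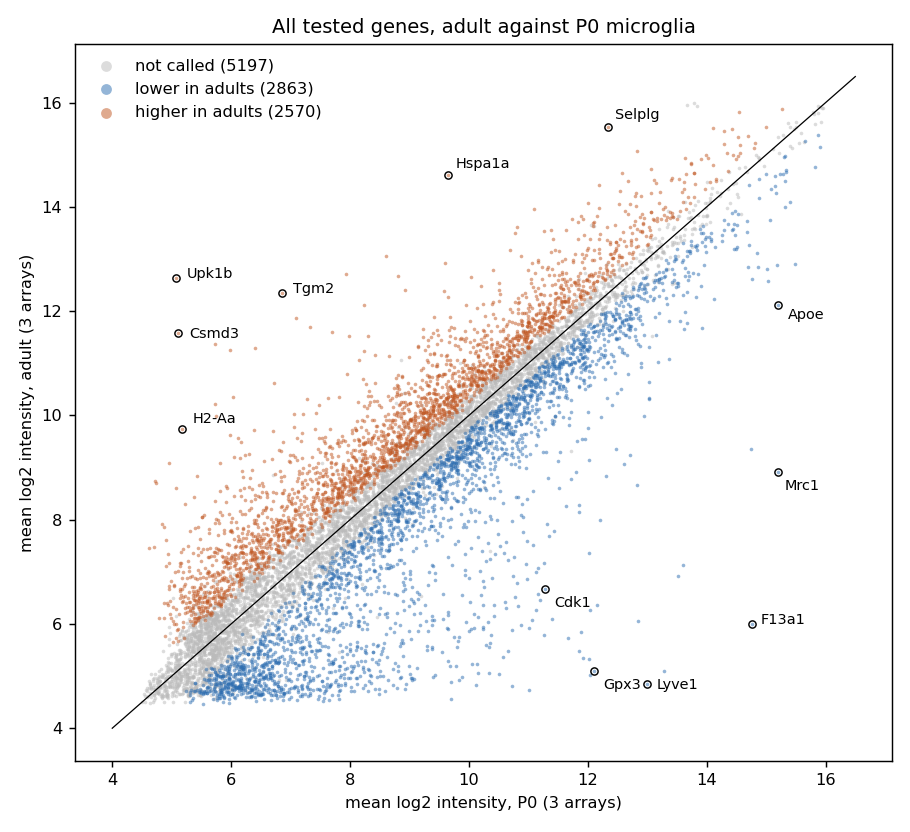
Mean log2 normalized intensity of each tested gene at P0 (x axis, 3 arrays) and in adults (y axis, 3 arrays), with the line of equal levels. Grey points are the 5197 genes not called, orange the 2570 called higher and blue the 2863 called lower in adults. Upk1b, Csmd3 and H2-Aa lie far above the line at low P0 levels, and F13a1, Lyve1 and Gpx3 far below it at low adult levels.

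The adult level was also extreme over the whole time course for many of these genes. Of the genes higher in adults, 1260 (49.0%) had all 3 adult arrays above each of the 22 other arrays, where 12.4% of all tested genes did. Of the genes lower in adults, 1451 (50.7%) had the adult arrays below the other 22, against 14.3% of all tested genes. These shares contain the P0 comparison itself and describe the genes without testing them.

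Genes not above background on any P0 array led the rises, while others among the 12 largest were detected at P0. Upk1b, a tetraspanin of the urothelium that also belongs to the adult microglial receptor set, had 4.94, 5.15 and 5.11 at P0 and 12.89, 12.76 and 12.24 in adults. It was not above background on any P0 array and was at least 113-fold higher in adults (difference 7.56 ± 0.31, adjusted p = 1.45e-13, limma). Csmd3, a large protein with complement-type CUB and sushi domains, had 4.84, 5.06 and 5.42 against 11.90, 11.70 and 11.15, at least 54.9-fold higher on the probe used. Other Csmd3 probes gave smaller rises, of 1.65 to 3.79 on the log2 scale. In both genes the 3 adult arrays lay together, far from the 3 P0 arrays. Chst8, a sulfotransferase, had 5.26, 5.89 and 6.06 against 11.60, 11.61 and 10.91. Tgm2, which crosslinks proteins, had 6.79, 6.85 and 6.93 against 12.62, 12.56 and 11.86. The rise was 5.64 ± 0.35 for Chst8 and 5.49 ± 0.37 for Tgm2, with no overlap. A second Tgm2 probe gave 3.20. Tnfsf13b, the B-cell survival factor BAFF, rose by 4.78 ± 0.59. Lrba, a protein of vesicle traffic, had 8.0, 7.64 and 8.16 against 12.75, 12.81 and 12.55, and further probes for it gave 3.15 to 4.24. Lrrc3, a leucine-rich repeat membrane protein, had 8.82, 8.08 and 8.93 against 13.12, 13.20 and 12.84. The remaining members of the 12 largest rises were heat shock, class II and erythroid genes, which are given with their groups.

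**Figure D2:**
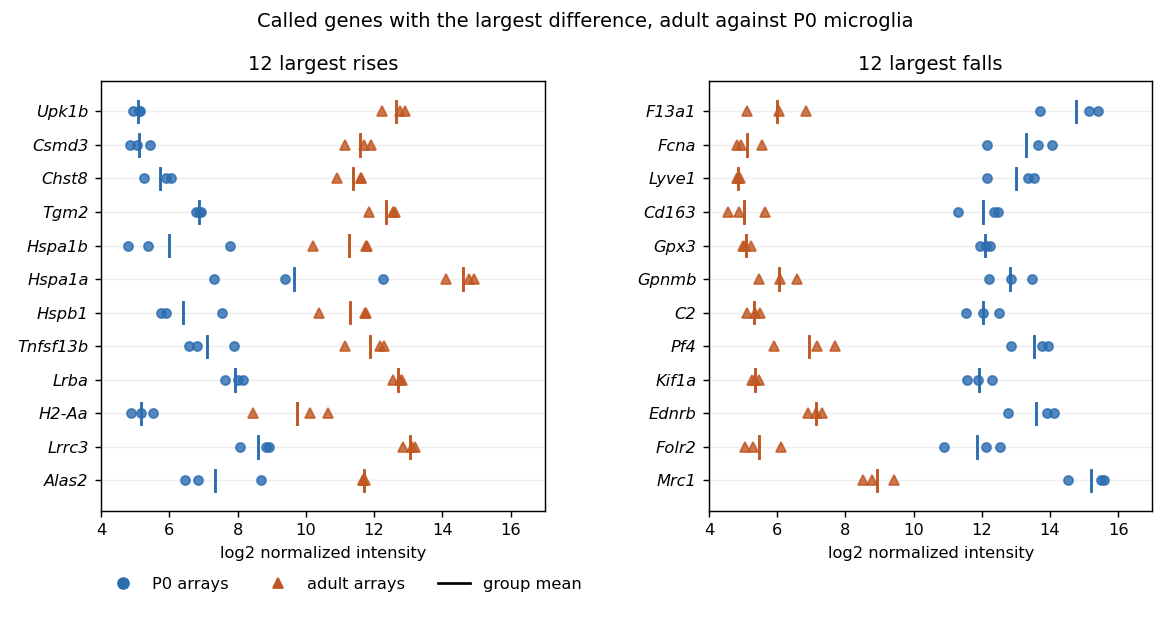
Log2 normalized intensity (x axis) on each array for the 12 called genes with the largest rise (left) and the largest fall (right), chosen among genes without overlap. Circles are P0 arrays, triangles adult arrays and bars group means. The P0 arrays spread widely for Hspa1a (7.32 to 12.27), and all 3 adult arrays of Lyve1 lie between 4.81 and 4.91.

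Genes known from macrophages at the borders of the brain were among the largest falls. F13a1, the A subunit of coagulation factor XIII, had 15.42, 15.14 and 13.71 at P0 and 6.84, 6.05 and 5.11 in adults. Lyve1, a hyaluronan receptor of perivascular macrophages, had 13.52, 13.35 and 12.14 against 4.81, 4.91 and 4.85. F13a1 fell by 8.75 on the log2 scale (SE 0.39), and Lyve1 was at least 116-fold lower, not above background on any adult array. Mrc1, the mannose receptor, had 15.59, 15.49 and 14.51 against 8.53, 8.79 and 9.42. Cd163, the haemoglobin scavenger receptor, had 12.47, 12.35 and 11.30 against 4.87, 5.63 and 4.55, and Folr2, a folate receptor, 12.53, 12.13 and 10.88 against 5.05, 6.10 and 5.28. They were at least 59.5-fold and at least 51.9-fold lower in adults. Pf4, platelet factor 4, had 13.95, 13.77 and 12.85 against 7.15, 7.68 and 5.92. For all 6 of these genes P0 replicate 3 was the lowest P0 array, yet it stayed far above every adult array. The other 6 of the 12 largest falls were Fcna, Gpx3, Gpnmb, C2, Kif1a and Ednrb. Fcna, a ficolin of the lectin pathway of complement, had 13.66, 14.05 and 12.16 at P0 and 4.94, 5.56 and 4.82 in adults, at least 141-fold lower. Kif1a, a motor for axonal transport in neurons, had 11.57, 11.90 and 12.30 against 5.46, 5.34 and 5.27, at least 54.8-fold lower, and P0 replicate 3 was its highest array.

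Of 20 measured border-macrophage markers, 18 were lower in adults and none higher, with a median difference of -4.73 where all genes had -0.03. Their summed normalized intensity was 236498, 212417 and 111024 on P0 replicates 1, 2 and 3, and between 17513 and 33256 on the adult arrays. All 20 were above background on at least 1 P0 array, and 9 on at least 1 adult array. Without P0 replicate 3, 18 were lower, with a median of -5.35. In these pooled populations fewer cells of a type and less RNA per cell cannot be told apart. Both groups were sorted as CD45low cells, and the part of border macrophages in the result was not tested. Several of these markers are shared by border macrophages and embryonic microglia, so they do not tell these cells apart. Lyve1 had stage means between 10.13 and 13.92 at every stage before the adult. Mrc1 had between 13.55 and 15.59 at those stages and 8.91 in adults.

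Homeostatic microglial genes, which mark the surveying state of the adult brain, were mostly higher in adults. Of 27 measured members 18 rose and 1 fell, with a median of 0.88, and 19 members had the adult arrays above the 22 other arrays. Because the list describes an adult state, its direction here is not independent evidence. Selplg, the P-selectin ligand, had 12.57, 11.90 and 12.52 at P0 and 15.51, 15.50 and 15.61 in adults. Slc2a5, a fructose transporter, had 6.39, 6.29 and 5.85 against 9.40, 9.09 and 8.34. Siglech, a sialic acid-binding lectin, had a mean of 13.06 (SD 0.43) against 14.73 (SD 0.20). The rises were 3.21 ± 0.20, 2.77 ± 0.33 and 1.67 ± 0.29, all without overlap. Entpd1 (CD39), which breaks down extracellular ATP, rose by 1.28 ± 0.23, and P2ry13, another ADP receptor, by 1.06 ± 0.17. The member that fell was Crybb1, a crystallin, with 12.72, 12.27 and 12.83 against 10.92, 10.87 and 11.77. Sall1, a transcription factor that maintains microglial identity, had 10.70, 11.24 and 11.44 against 11.14, 11.28 and 12.15. Its difference of 0.40 ± 0.24 was not called on this probe (adjusted p = 0.17, limma), and a second probe gave 0.80.

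The sensome, a list of microglial genes for sensing the environment that other work compiled from adult microglia, had 83 measured members. Of these 44 rose, 3 fell and 40 had the adult arrays above all 22 others, with a median of 0.63. Because the list was drawn from adult cells, its direction here is not independent evidence. Besides Upk1b and Selplg, the adaptor Sting1, which signals the presence of cytosolic DNA, had 9.87, 9.53 and 9.35 at P0 and 12.31, 12.17 and 12.67 in adults. Csf3r, the receptor for G-CSF, had 11.08, 11.02 and 11.38 against 12.76, 12.80 and 13.26. Adora3, an adenosine receptor, had 9.92, 10.19 and 10.14 against 11.48, 11.53 and 11.95. The 3 genes rose by 2.80 ± 0.19, 1.78 ± 0.21 and 1.57 ± 0.18, and no P0 array reached an adult one. The 3 members that fell were Fcgr4, an activating Fc receptor, Lgals9, a galectin, and Cd79b, known from the B-cell receptor, by 0.92, 0.84 and 0.68 on the log2 scale.

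TGF-beta signalling genes rose in 9 of 18 measured cases and fell in 2 (median 0.61). Tgfbr1, the type I receptor, had 14.60, 14.46 and 14.60 at P0 and 15.85, 15.84 and 15.76 in adults. Smad3, a transcription factor it activates, had 11.89, 11.88 and 11.74 against 13.38, 13.38 and 13.41. Both groups were tight, and the rises were 1.27 ± 0.14 and 1.55 ± 0.12. Eng, a co-receptor, rose by 2.04 ± 0.20. Itgav, an integrin subunit that releases the active ligand, rose by 1.76 ± 0.39, while its other probes gave 0.53 to 0.78. Nrros, which tethers latent TGF-beta on microglia, fell by 0.93 on the log2 scale (SE 0.21). Among 23 macrophage transcription factors 7 rose and 3 fell, with a median of -0.16. Irf8, which macrophages of the brain need for their development, rose by 0.79 ± 0.17 from 11.41, 11.67 and 11.58 to 12.30, 12.19 and 12.52. Irf5 rose by 1.09 ± 0.18 and Batf3 by 1.12 ± 0.23. Maf fell, with a mean of 9.05 at P0 and 7.89 in adults. Without P0 replicate 3, 4 of these factors rose, and without P0 replicate 1, 1 fell.

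Mitosis was the list of cell functions with the lowest median difference. Of 43 measured members 37 fell and 2 rose, with a median of -3.09, and 37 had the adult arrays below the 22 other arrays. Top2a, which untangles DNA before chromosomes part, had 11.27, 10.71 and 11.42 at P0 and 6.06, 6.31 and 6.41 in adults. Cdk1, the kinase that drives entry into mitosis, had 11.27, 10.90 and 11.65 against 6.42, 6.64 and 6.94. Prc1, which bundles microtubules of the spindle midzone, had 12.16, 11.98 and 12.45 against 8.16, 8.11 and 7.72. Top2a fell by 4.87 ± 0.21, Cdk1 fell by 4.61 ± 0.20 and Prc1 fell by 4.2 ± 0.14 on the log2 scale, and no group overlapped. Kif11, the motor that separates spindle poles, had 9.23, 8.87 and 8.96 against 5.28, 4.84 and 4.74. Cdc20, which activates the anaphase-promoting complex, had 10.44, 10.14 and 10.57 against 7.02, 7.09 and 6.51. Weaker probes differed: a second Cdk1 probe went the other way (0.41), so that the mean of both Cdk1 probes was lower by less (-2.10), and the other Top2a probes gave -0.83 to -0.40. The members that rose were Pttg1 (securin, a separase inhibitor) with 6.69, 6.20 and 6.13 against 7.52, 7.73 and 7.96, and Spc24, a kinetochore protein, whose other probe gave -1.94. With the mean of its probes Spc24 was lower in adults (-0.46).

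DNA replication and licensing genes fell in 31 of 36 measured cases and rose in none, with a median of -1.87. Mcm10, which helps to open replication origins, had 10.34, 10.13 and 10.25 at P0 and 6.38, 5.51 and 5.82 in adults. Mcm5, a subunit of the replicative helicase, had 12.51, 12.53 and 12.39 against 9.50, 9.39 and 9.17. Mcm6, another subunit of the helicase, had 11.63, 11.60 and 11.26 against 9.44, 9.28 and 8.64. Without overlap, Mcm10 fell by 4.34 ± 0.16, Mcm5 fell by 3.12 ± 0.12 and Mcm6 fell by 2.37 ± 0.19 on the log2 scale, and other Mcm10 probes gave -3.21 to -0.27. Uhrf1, which carries DNA methylation through replication, fell by 3.71 ± 0.14 on that scale. Chaf1a, a chromatin assembly factor, was at least 9.45-fold lower, not above background on any adult array. In the list of G1 regulators 14 of 26 fell and 2 rose (median -0.52). E2f1, which switches on S-phase genes, had 10.87, 10.81 and 10.52 against 7.11, 7.25 and 6.38. Cdkn2c, an inhibitor of the G1 kinases, fell as well, with 10.56, 10.13 and 10.70 against 8.0, 7.77 and 8.23. Ccng2, a cyclin associated with leaving the cycle, rose from 9.08, 9.50 and 9.36 to 11.68, 11.42 and 10.89.

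The promoters of these genes were read because so many members moved together. RefSeq promoters of GRCm38.p6, each the 250 bases before and 50 after the first listed start, were matched for 8644 of the 10630 tested genes and for 34 mitosis genes. The letters TTTGAA, the core of the cell cycle genes homology region at which mitotic genes are repressed in resting cells, were searched on both strands. They occurred in 27 of the 34 mitosis promoters (79.4%), and in 1036 of all 8644 (12%). They were in 24 of the 30 promoters of mitosis genes called lower and in all 3 of those not called. Replication promoters held them in 4 of 29 (13.8%) and held one of the E2F letter sets TTTCCCGC or TTTGGCGC in 9 of 29 (31%), against 3.11% of all promoters. Either E2F set was in 7 of the 25 promoters of replication genes called lower and in 2 of the 4 not called. The stretches shown are examples from 4 of the mitosis genes described above and from Mcm6, each with a match before the start. They read on the gene's strand, with the matched letters in capitals (TTCAAA is TTTGAA on the opposite strand). Top2a is shown from chr11:99024190-99024249 (minus strand), Cdk1 from chr10:69352913-69353002 (minus), Kif11 from chr19:37376322-37376381 (plus), Cdc20 from chr4:118437344-118437403 (minus) and Mcm6 from chr1:128359736-128359825 (minus).
Top2a: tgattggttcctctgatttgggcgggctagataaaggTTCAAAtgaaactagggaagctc
Cdk1: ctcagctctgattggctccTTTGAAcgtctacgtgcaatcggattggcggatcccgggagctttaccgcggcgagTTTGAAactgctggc
Kif11: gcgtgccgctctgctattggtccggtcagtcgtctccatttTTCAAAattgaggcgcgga
Cdc20: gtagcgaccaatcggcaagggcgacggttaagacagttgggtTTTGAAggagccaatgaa
Mcm6: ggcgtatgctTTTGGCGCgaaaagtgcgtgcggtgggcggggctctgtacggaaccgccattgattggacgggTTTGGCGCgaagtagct
In the stretches of Cdk1 and Mcm6 the letters occur at 2 places, and the Top2a promoter holds TTTGAA once more outside the stretch shown. A match describes the sequence and does not show that a factor binds there.

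**Figure D3:**
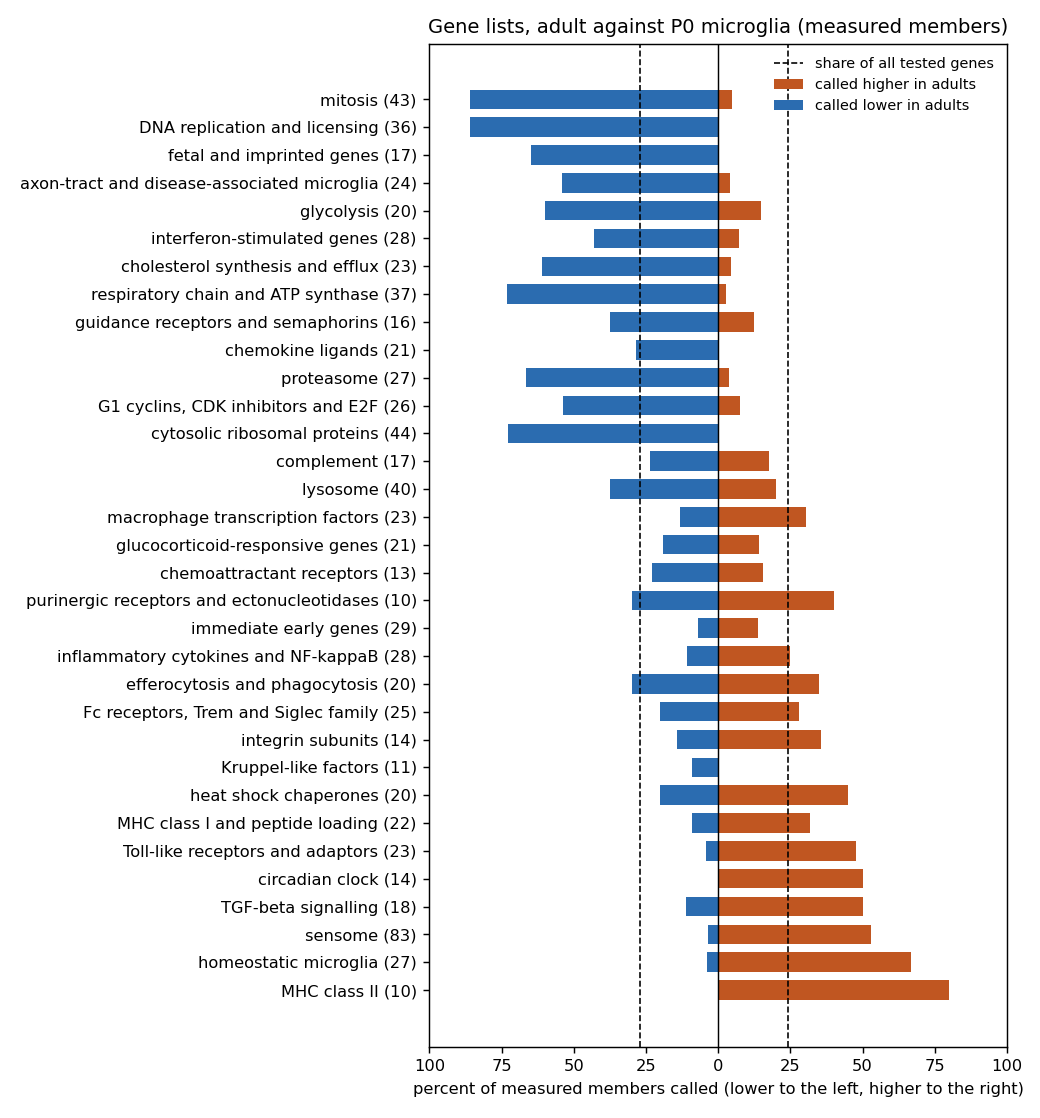
Percent of the measured members of each gene list (number in brackets) called lower (blue, to the left) or higher (orange, to the right) in adults, ordered by median difference. The dashed lines mark the shares over all tested genes, 26.9% lower and 24.2% higher. Mitosis and DNA replication lie far beyond the left line and MHC class II far beyond the right one.

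Genes of the axon-tract state of early postnatal life, which recurs around plaques in disease, fell in 13 of 24 measured cases and rose in 1 (median -1.03). Because the list describes an early postnatal state, its direction here is not independent evidence. Igf1, a growth factor that supports neurons and forming myelin, had 11.34, 11.41 and 11.46 at P0 and 5.64, 6.44 and 6.22 in adults. Gpnmb, a glycoprotein of lipid-laden macrophages, had 12.20, 12.85 and 13.46 against 6.09, 6.58 and 5.48. Apoe, the main lipid carrier of the brain, had 15.08, 15.29 and 15.25 against 11.86, 11.95 and 12.55. Igf1 fell by 5.30 ± 0.22, Gpnmb fell by 6.79 ± 0.37 and Apoe fell by 3.09 ± 0.26 on the log2 scale, and other Gpnmb probes gave -3.33 to -0.91. Lgals1, a galectin, had a mean of 12.16 (SD 0.69) against 6.37 (SD 0.61). Plin2, which coats lipid droplets, had 10.30, 11.15 and 10.83 against 7.19, 7.28 and 7.38. None of these 5 genes overlapped between the groups. Igf1 and Plin2 had stage means of 11.40 and 10.88 at E14.5, against 11.40 and 10.76 at P0. Lgals1 was highest in YSM (13.49), and Gpnmb and Apoe were highest at P0 (12.84 and 15.21). Spp1, another gene of the list, was not measured.

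Fetal and imprinted genes fell in 11 of 17 measured cases and rose in none (median -1.33). Igf2, the fetal insulin-like growth factor, had 11.34, 11.51 and 12.13 at P0 and 5.36, 6.66 and 5.18 in adults. Igf2bp3, a fetal RNA-binding protein, had 12.21, 12.08 and 11.83 against 5.62, 5.85 and 7.35, and its other probes ranged from -6.35 to 0.06. Ndn, an imprinted gene of the MAGE family, had 9.92, 10.35 and 10.72 against 5.28, 5.00 and 4.92 and was at least 18.2-fold lower. All 3 genes were separated by more than 4 log2 units between any P0 and any adult array.

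Lower levels in adults were also common in energy supply and protein turnover. In glycolysis 12 of 20 measured genes fell and 3 rose (median -0.95). Pgk1, which makes ATP in the pathway, had 12.80, 11.64 and 12.21 at P0 and 9.97, 10.04 and 9.92 in adults, although its second probe gave -0.10. Pkm, pyruvate kinase, fell by 1.97 ± 0.19 on the log2 scale, whereas Ldhb, a lactate dehydrogenase subunit, rose by 1.19 ± 0.29 and Pfkfb4, a regulator of the pathway, by 1.42 ± 0.16. Without P0 replicate 1, 5 glycolysis genes rose. In the respiratory chain and ATP synthase 27 of 37 fell and 1 rose (median -0.64). Cox5b, a subunit of cytochrome c oxidase, had 13.28, 13.35 and 13.35 against 12.13, 12.24 and 12.07. Of 44 cytosolic ribosomal proteins 32 fell and none rose (median -0.51), for example Rps19 with 15.03, 15.04 and 15.11 against 13.75, 13.78 and 13.69, where a second probe gave -0.24. Of 27 proteasome genes 18 fell and 1 rose (median -0.53), among them the core subunit Psmb1 with a mean of 11.72 (SD 0.14) against 10.29 (SD 0.33). These differences are small enough to depend on scaling. With the 75th percentile 17 respiratory, 13 ribosomal and 9 proteasome genes fell, and 2 ribosomal genes rose.

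Cholesterol synthesis and efflux genes fell in 14 of 23 cases and rose in 1 (median -0.69). Sqle, which commits squalene to sterol synthesis, had 9.08, 9.17 and 9.01 at P0 and 6.37, 6.57 and 6.24 in adults, a fall of 2.69 ± 0.20 on the log2 scale. Scd2, a fatty acid desaturase, fell by 1.73 ± 0.35, and Stard4, which carries cholesterol between membranes, by 1.74 ± 0.30. In each of the 3 genes the groups did not overlap.

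MHC class II, which presents peptides to helper T cells, was the list with the largest share of rising members. Of 10 measured genes 8 rose and none fell (median 2.19). H2-Aa, an antigen-binding chain, had 5.16, 5.51 and 4.86 at P0 and 10.63, 10.13 and 8.46 in adults. It was not above background at P0 and was at least 15.3-fold higher in adults (difference 4.56 ± 1.19, adjusted p = 0.0033, limma). H2-Eb1, the beta chain of a second class II molecule, had 5.63, 6.08 and 5.53 against 10.30, 10.37 and 9.30. H2-Aa and H2-Eb1 did not pass the methods' Tukey post hoc test. H2-Aa ran from 7.04 to 12.67 over the 4 YSM arrays (mean 9.55) and had a mean of 9.74 in adults. The peptide-loading genes were more even. H2-DMa had a mean of 10.21 (SD 0.28) against 12.49 (SD 0.02), and H2-Ob, a modulator of loading, 7.49, 6.84 and 7.22 against 9.68, 9.73 and 9.61. Ctss, the protease that trims the invariant chain, rose by 1.73 ± 0.27. The invariant chain Cd74 itself had 9.63, 9.06 and 8.96 against 10.54, 10.59 and 9.46 and was not called (adjusted p = 0.25, limma). H2-Ab1 had 9.0, 8.71 and 8.87 against 11.42, 11.43 and 10.33, without overlap and just outside the threshold (adjusted p = 0.062, limma). H2-Ab1 was called with 7 of the 18 alternative settings. For H2-Aa, H2-Eb1, H2-Ab1 and Cd74 adult replicate 3 was the lowest adult array.

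In the class I presentation list 7 of 22 genes rose (31.8%) and 2 fell (9.1%, median 0.31), where all genes had 24.2% and 26.9%. Tap2, a subunit of the peptide transporter, had 10.28, 9.90 and 10.21 at P0 and 11.69, 11.59 and 11.54 in adults. Toll-like receptors and their adaptors rose in 11 of 23 cases and fell in 1 (median 0.37). Tlr3, a sensor of double-stranded RNA, had 5.90, 5.67 and 5.61 against 8.84, 8.66 and 7.55. Tlr8, a sensor of single-stranded RNA, went the other way with 8.84, 8.40 and 6.96 against 4.82, 4.72 and 4.61, at least 3.79-fold lower. Irak2, a kinase below the receptors, rose by 1.25 ± 0.13. In the complement list 3 of 17 rose (17.6%) and 4 fell (23.5%, median -0.31). Both shares were below those over all genes (24.2% and 26.9%). C2, a protease of the classical pathway, had a mean of 12.02 (SD 0.48) against 5.32 (SD 0.20), at least 58.8-fold lower. Cfp (properdin), which stabilizes the alternative pathway, fell from 12.96, 13.56 and 11.29 to 9.09, 9.18 and 8.93. Without P0 replicate 3, 1 complement gene rose.

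Interferon-stimulated genes fell in 12 of 28 cases and rose in 2 (median -0.70). Oas2, which senses viral double-stranded RNA, had 10.70, 9.99 and 9.96 at P0 and 7.61, 7.69 and 6.88 in adults. Ifitm3, which blocks viral entry, had a mean of 13.03 (SD 0.59) against 10.34 (SD 0.39). Oas2 fell by 2.82 ± 0.45 and Ifitm3 fell by 2.69 ± 0.37 on the log2 scale, and Ifi27 rose by 1.38 ± 0.18. P0 replicate 1 bore on the count, which was 7 lower without it.

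Chemokine ligands fell in 6 of 21 cases and rose in none (28.6% of the list, where 26.9% of all genes fell). Under the methods' Tukey test 3 fell, and in the fit with the replicate block 10 fell and 1 rose. Ccl7, a monocyte attractant, had 11.86, 12.27 and 9.46 at P0 and 6.99, 6.77 and 5.62 in adults. Ccl24, an eosinophil attractant, had 9.75, 9.87 and 8.25 against 5.71, 5.34 and 5.70, at least 8.84-fold lower. P0 replicate 3 was again the lowest P0 array for both, as it was for Pf4. Among chemoattractant receptors 2 of 13 rose (15.4%) and 3 fell (23.1%), both below the shares over all genes (24.2% and 26.9%). Cxcr2, a receptor for neutrophil chemokines, had 8.31, 8.03 and 9.15 against 4.84, 4.64 and 5.52. Cxcr4, the receptor for Cxcl12, had 8.95, 6.73 and 8.94 against 7.42, 7.23 and 5.67 and was not called (adjusted p = 0.11, limma). Without P0 replicate 2, the low P0 array, Cxcr4 was lower in adults (adjusted p = 0.023, limma). Guidance receptors and semaphorins fell in 6 of 16 cases and rose in 2 (median -0.56). Plxnd1, a semaphorin receptor, was at least 11.6-fold lower, and Plxna2 had 5.71, 5.74 and 6.19 against 4.66, 4.49 and 4.61. Plxna2 was above background on 1 P0 array. Efnb1, an ephrin, rose from 7.19, 7.16 and 6.99 to 9.87, 9.81 and 9.01.

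Stress-related lists were mixed. Of 20 heat shock chaperones 9 rose (45%) and 4 fell (20%, median 0.28), where all genes had 24.2% and 26.9%. Hspa1a, the inducible chaperone of the HSP70 family, had 9.38, 7.32 and 12.27 at P0 and 14.79, 14.94 and 14.10 in adults. Its near-identical copy Hspa1b had 5.38, 4.79 and 7.79 against 11.75, 11.80 and 10.22, and a probe may read both. The small chaperone Hspb1 had 5.91, 5.76 and 7.53 against 11.77, 11.72 and 10.40. In all 3 genes P0 replicate 3 was the highest P0 array and adult replicate 3 the lowest adult array. The rises were 4.95 ± 1.26, 5.27 ± 0.84 and 4.90 ± 0.54. The co-chaperone Stip1 fell by 1.35 ± 0.18 on the log2 scale, and without adult replicate 3 the list had 2 falls. The same genes also had high stage means at E16.5. Hspa1a had 13.77 at E16.5 and 9.49 to 10.25 at the other stages before the adult. Hspa1b had 9.67 against 5.86 to 8.69, and Hspb1 had 9.69 against 5.37 to 6.59. Between P0 and adult, age and the density gradient cannot be told apart.

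Of 29 immediate early genes, which respond within minutes to stimulation, 4 rose (13.8%) and 2 fell (6.9%, median 0.02). Both shares were below those over all genes (24.2% and 26.9%). Ier2 rose from 6.82, 6.81 and 7.01 at P0 to 9.79, 9.60 and 9.08 in adults. Fos had 14.29, 13.99 and 13.62 against 14.72, 14.79 and 12.71, and Egr1 14.69, 14.65 and 14.27 against 15.35, 15.37 and 13.50. Adult replicate 3 lay below every P0 array in both genes and the other adult arrays above every one, and neither was called (adjusted p = 0.84 and 0.68, limma). Without adult replicate 3 both were higher in adults (adjusted p = 0.017 and 0.020, limma) and 6 genes of the list rose, while without adult replicate 2, 2 rose. The count was 12 in the fit with the replicate block and 1 under the methods' Tukey test, and the median of the list was below 0 in 7 of the 18 alternative settings. Ccn1, a matricellular protein, was at least 5.45-fold lower in adults. Clock genes rose in 7 of 14 cases and fell in none (median 0.55). Nr1d2, a repressor of the clock, had 7.54, 8.12 and 7.08 against 9.68, 9.63 and 9.10, and Dbp, one of its output factors, 9.26, 9.72 and 8.58 against 10.51, 10.48 and 10.02. The hour of collection is not given in the sources used here. With adult replicates 1 and 2 averaged, a setting chosen after seeing the data, 4 clock genes rose.

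Markers of other cell types also differed between the groups, and here too age and the density gradient cannot be told apart. Of 19 measured neuronal genes 16 fell and none rose (median -2.38). Their summed normalized intensity was 4749 to 8773 on P0 arrays and 471 to 635 on adult arrays, with 18 and 6 genes above background on some array. Stmn2, a tubulin regulator of growing axons, had 9.70, 9.46 and 10.51 against 5.14, 4.94 and 4.87. Map2, a dendritic protein, had 10.12, 10.12 and 10.81 against 5.32, 6.19 and 5.37. Their part in the result was not tested. P0 replicate 3 had the highest neuronal sum, and without it 13 neuronal genes fell.

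Astrocyte markers fell in 7 of 10 cases and rose in 1 (summed 4522 to 5948 at P0 and 8661 to 10467 in adults). The adult sum came from Slc1a3, a glutamate transporter also found in macrophages, with 10.26, 10.66 and 11.13 against 13.18, 13.30 and 13.04, while Gja1 (connexin 43) had 10.94, 11.40 and 10.90 against 7.75, 7.59 and 7.22. On adult arrays 2 of the 10 were above background. Of 9 oligodendrocyte genes 3 were higher and 4 lower in adults (summed 3403 to 4023 at P0 and 3417 to 3495 in adults). Mag, a myelin protein, rose from 8.70, 8.86 and 8.85 to 10.83, 10.69 and 10.84, and Olig1, a lineage factor, was at least 21.5-fold lower. Neural progenitor genes had 2 higher and 6 lower of 10 (summed 4582 to 7626 against 3867 to 5195), among them Sox11 and Nes, which were at least 15.8-fold and at least 5.33-fold lower, and Hes1, a Notch target, which rose by 2.74 ± 0.33. Endothelial genes had 1 higher and 8 lower of 13 (3732 to 5198 against 2314 to 3369). Fibroblast and pericyte genes had 1 higher and 5 lower of 11 (819 to 1661 against 303 to 353). Neutrophil and monocyte genes had 1 higher (5%) and 4 lower (20%) of 20 (17182 to 47316 against 7435 to 10114). F13a1, which the border list also holds, made up much of their P0 sum. T, NK and B cell genes had 1 higher and 1 lower of 6 (16.7% each, summed 6801 to 9724 against 5966 to 8392). The higher one was Klrd1, an NK receptor at least 7.65-fold higher in adults. Both this list and the neutrophil and monocyte list had shares below those over all genes (24.2% higher and 26.9% lower).

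Erythroid genes had 2 higher and 2 lower of 13 (15.4% each, where 24.2% of all genes were higher and 26.9% lower). Their sum was 23949, 31794 and 107675 on P0 replicates 1, 2 and 3 against 193978 to 199687 on adult arrays. The globin Hbb-bs had 12.99, 13.27 and 15.12 at P0 and 15.97, 15.99 and 16.01 in adults, without overlap and not called (adjusted p = 0.13, limma). Alas2, which makes haem in red cells, had 6.46, 6.84 and 8.68 against 11.69, 11.66 and 11.74 and rose by 4.37 ± 1.11. P0 replicate 3 was thus the P0 array with the highest erythroid and neuronal sums, the highest Hspa1a, Hspa1b and Hspb1 levels and the lowest border-macrophage sum. Fitted on the adult and P0 arrays alone, 6 erythroid genes rose, Hbb-bs among them (limma). The part of these other cells in the adult and P0 difference was not tested.

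**Figure D4:**
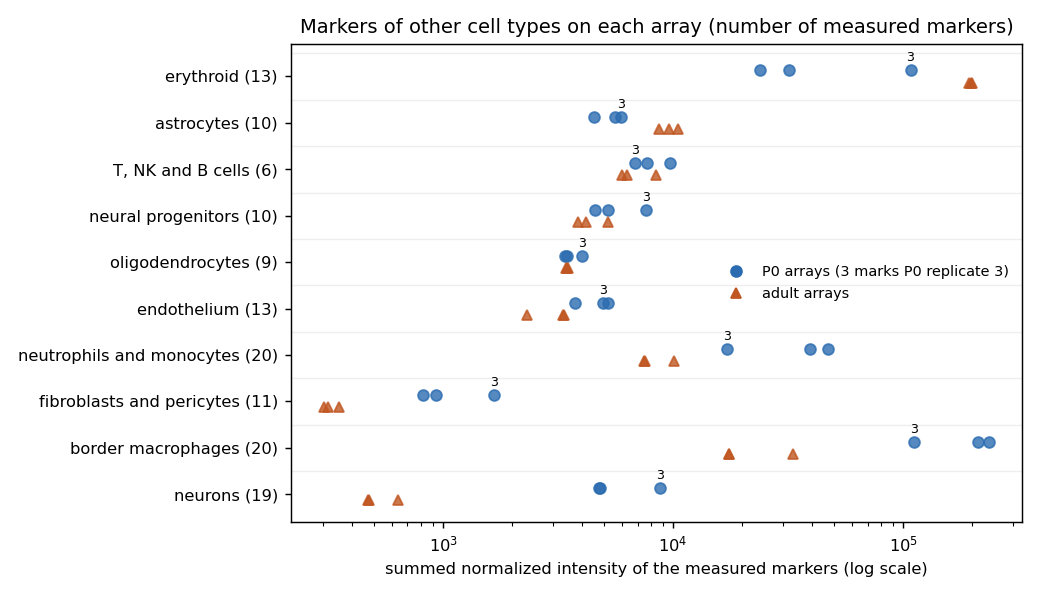
Summed normalized intensity (x axis, log scale) of the measured markers of 10 other cell types on each P0 array (circles, P0 replicate 3 marked 3) and adult array (triangles). The number of markers is in brackets. Neuronal and border-macrophage sums were lower on every adult array than on any P0 array, and erythroid and astrocyte sums were higher.

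The stage course placed these differences in time, as a description without a test. Upk1b had stage means no higher than 5.44 before the adult, where it had 12.63. P2ry12 had 9.85 in YSM and 12.53, 12.49 and 12.54 at E16.5, E18.5 and P0, then 14.30 in adults. Tmem119 had 8.09 in YSM, 12.83 at P0 and 15.06 in adults. Sall1 had 7.25 in YSM, 10.91 at E16.5, 11.13 at P0 and 11.52 in adults, so most of its course lay before birth. Mcm10 had 12.44 in YSM, 10.24 at P0 and 5.90 in adults, whereas Cdk1 had means between 11.02 and 11.41 at every stage before the adult and 6.67 there. Igf1 had 9.22 in YSM, 11.11 at E12.5, 11.40 at P0 and 6.10 in adults. Klf9, a glucocorticoid-responsive factor, had 7.72, 6.91 and 8.77 at P0 and 8.24, 7.98 and 7.85 in adults and was not called (adjusted p = 0.68, limma).

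**Figure D5:**
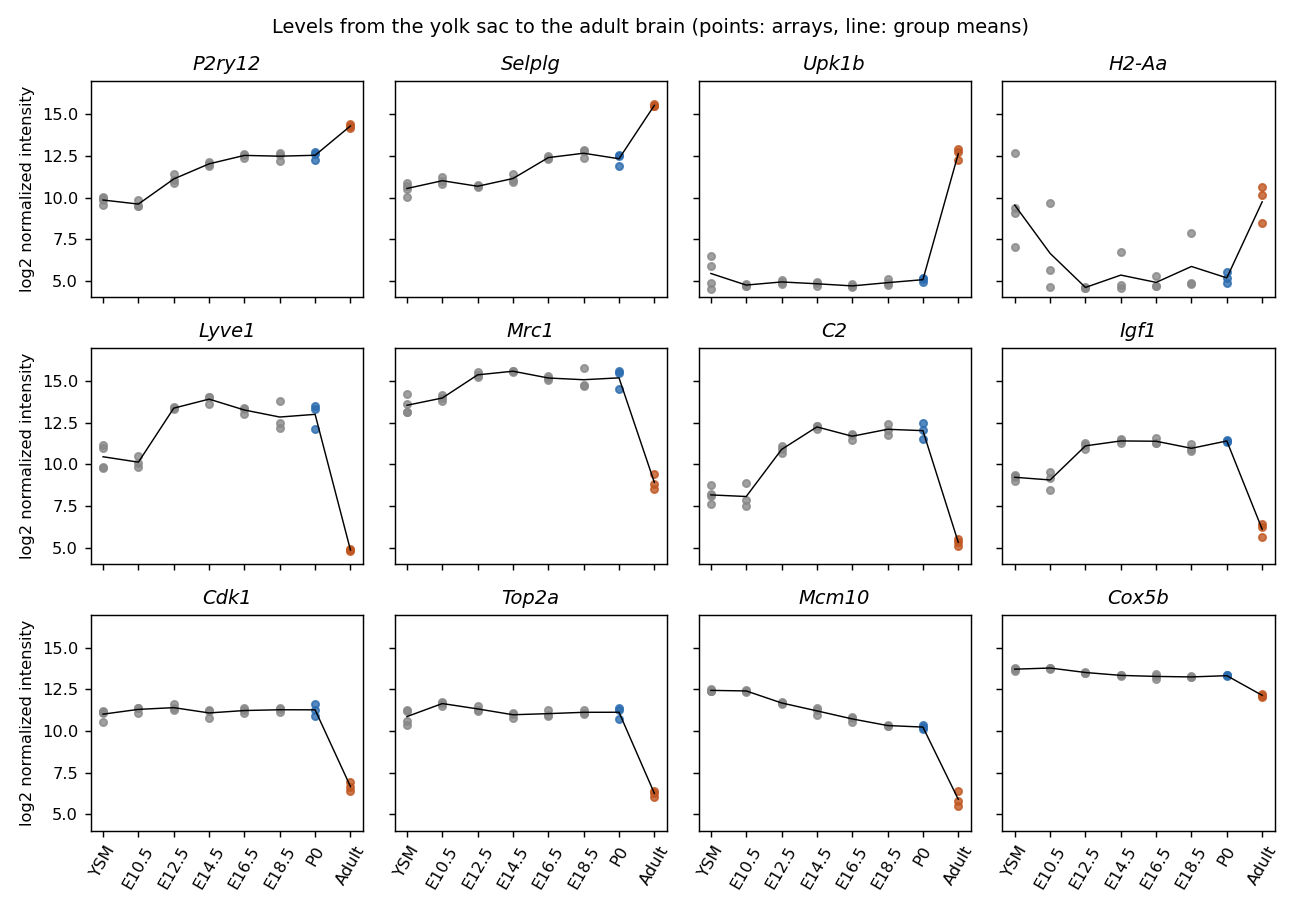
Log2 normalized intensity (y axis) of 12 genes on each array from YSM through E10.5 to E18.5 (grey), P0 (blue) and adult (orange), with lines through the group means. P2ry12 and Selplg climb over several stages, Upk1b appears in the adult, and Lyve1, C2, Igf1, Cdk1 and Top2a are lower on all adult arrays than at every earlier stage.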

How the data were processed

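RNA from sorted microglia was hybridised to Illumina Mouse WG-6 version 2 arrays. Per the methods, the authors extracted values with GenomeStudio and quantile-normalized them with lumi (versions not given in the sources used here). The deposited tables hold the probe intensity, a detection p-value for each probe from the authors' scanner software, and the authors' normalized intensity. Of 45281 probes, 34885 had 1 gene symbol, 18 several and 10378 none. Intensities were background-corrected with neqc in limma 3.58.1 (R 4.3.3, offset 16), quantile-normalized and put on a log2 scale. The filter retained 19789 probes whose detection p fell below 0.01 on 3 arrays or more. Of these, 16741 carried a single symbol, and each of the 10630 genes was read from its brightest probe on average. Of the called genes with over 1 probe, 1727 of 2205 had all probes in the same direction. A linear model with 1 mean for each of the 8 groups was fitted to the 25 distinct arrays with lmFit and eBayes (17 residual degrees of freedom), adult was contrasted with P0, and p-values were adjusted by Benjamini-Hochberg over all genes. Lower-bound folds use, on each array of the dim group, the higher of the gene's own value and the lowest value above background. The number of arrays limits the precision. Each array is a pool of animals, and p-values measure only the spread between these samples. No column outside the series was used (0). Identical adult columns were counted once. Array columns name the group but not which titled sample, so replicate numbers follow the columns.

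Named genes were the 12 largest rises and falls without overlap, up to 4 called members of each list in each direction, and the genes the study names for its stages. The sort and microglial markers were also named. Some genes under this rule are not reported here. Hbb-bs, H2-Ab1, Cd74, Fos, Egr1, Eif2s3y, Xist, C1qb, Kif11, Cdc20, Mcm5 and Mcm6 were added after their values were seen. The members and lists were chosen with earlier results of these data known, so lists are described by counts and medians, with no test. The model was tested on simulated data. Alternatives covered background correction, scaling, filter, probe choice, arrays fitted, the methods' Tukey post hoc test on the authors' normalized values, a replicate block and leaving out each array.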

Additional observations from a re-analysis of the deposited data

How the results depend on the processing

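There were 18 alternatives, 17 planned and 1 chosen after seeing the data, which counts adult replicates 1 and 2 as 1 array. Of 4692 pairs of a named gene and a setting, 4376 kept the call with its direction or stayed not called. Pairs that stayed not called were counted as kept whatever their sign, as for Klf9 (-0.22 to 0.71 over the settings). Of the other pairs, 278 lost the call, 35 gained one and 3 reversed. The reversed values were 0.47 for C1qb with the 75th percentile, and -0.46 for Spc24 and -0.32 for Mbp with the mean of all probes. The methods' Tukey post hoc test on the authors' normalized values called 3052 genes, 1492 higher and 1560 lower, and 170 of the 240 called named genes, and it gave 5 lower interferon-stimulated, 4 fetal, 8 neuronal, 1 endothelial and 13 border-macrophage genes. Fitted on the adult and P0 arrays alone, 21 ribosomal genes were lower. The other settings called 4443 to 5457 genes. Leaving out 1 array at a time gave 4793 to 5399 calls, 2203 to 2664 higher and 2504 to 2735 lower, with 223 to 229 of the named genes called. Of 43 lists 26 had more lower than higher genes, and 25 did with any 1 array left out. Numbers shared by adult and P0 sample titles do not pair the samples (2 shared after identical columns were counted once, residual degrees of freedom 1), and with the replicate block 4487 genes were called, 2233 higher and 2254 lower, with 210 named genes called. The lysosome list had 8 higher and 15 lower of 40, and 3 higher without P0 replicate 3, adult replicate 1 or adult replicate 2. It turned to 13 higher and 10 lower with the 75th percentile. The cause of these shifts was not tested. Weak probes near background, 135 of the higher and 798 of the lower genes, allow only lower bounds.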

Other observations

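Of all genes tested 24.2% rose and 26.9% fell, and the lists for engulfing dead cells and for adhesion went both ways as well. In the efferocytosis and phagocytosis list 7 of 20 rose (35%) and 6 fell (30%, median 0.13), with 2 to 6 falls under the alternatives. Elmo1, which links engulfment receptors to the cytoskeleton, rose by 1.32 ± 0.10, and Havcr2 (TIM-3) had 11.70, 11.72 and 12.31 at P0 and 12.91, 13.09 and 13.31 in adults, a rise of 1.19 ± 0.29. Gas6, a bridging ligand to dying cells, had 15.13, 14.75 and 14.39 against 12.40, 12.42 and 13.01, and Msr1, a scavenger receptor, was at least 3.65-fold lower. Among 14 integrin subunits 5 rose (35.7%) and 2 fell (14.3%, median 0.15): Itgae rose from 5.74, 5.80 and 6.18 to 8.97, 9.16 and 7.81, while Itgal, a subunit of LFA-1, fell from 7.51, 7.65 and 7.72 to 5.32, 5.59 and 5.03. Of 25 Fc receptors and Trem and Siglec family members 7 rose (28%) and 5 fell (20%, median 0.13). Siglec1, a sialic acid-binding receptor of tissue macrophages, had 9.63, 9.16 and 7.59 against 4.69, 4.87 and 4.74 and was at least 6.25-fold lower, and Lair1, an inhibitory collagen receptor, rose by 1.54 ± 0.19.

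Of 40 lysosomal genes 8 rose (20%) and 15 fell (37.5%, median -0.21), where 24.2% and 26.9% of all genes did. The proton pump subunits Atp6v1a and Atp6v0d1 fell by 1.37 and 1.02 on the log2 scale, and the cholesterol exporter Npc1 and the protease Ctsh rose by 0.83 ± 0.15 and 1.14 ± 0.24. Of 10 purinergic receptors and ectonucleotidases 4 rose (40%) and 3 fell (30%, median -0.01), the falls including P2rx4, an ATP-gated channel (1.05 on the log2 scale). Of 28 inflammatory cytokine and NF-kappaB genes 7 rose (25%) and 3 fell (10.7%, median 0.10), and 10 rose without adult replicate 3. Csf1, a ligand of the receptor Csf1r, fell by 2.01 ± 0.42 on the log2 scale, and Gpr84, a fatty acid receptor, rose by 1.40 ± 0.24. Among 21 glucocorticoid-responsive genes 3 rose and 4 fell (median -0.06), with Glul (glutamine synthetase) at 7.89, 7.73 and 7.50 against 9.89, 9.30 and 8.41. Of 11 Kruppel-like factors 1 was called (Klf13, -0.65), and that call was lost with 10 of the 18 alternatives. Ednrb, an endothelin receptor, had 13.91, 14.10 and 12.78 against 6.89, 7.15 and 7.33, and Gpx3, a secreted peroxidase, was at least 62.1-fold lower.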
